A study of Mus musculus with 8 samples.

Results

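The integrated stress response (ISR) is the program through which cells answer amino acid shortage, heme shortage, double-stranded RNA and stress of the endoplasmic reticulum (ER). It was followed here through 10 genes chosen by name: Atf4, Ddit3, Atf3, Asns, Psat1, Ddit4, Sesn2, Trib3, Ppp1r15a and Chac1. All 10 were found among the 49315 genes of the count table, and all 10 were among the 13051 genes with enough counts to be tested. The libraries came from bone marrow-derived macrophages (BMDMs), primary macrophages grown from the femur and tibia marrow of C57BL/6 mice with 10 ng per ml of macrophage colony-stimulating factor. Both groups received a gapmeR by transfection, that is, an antisense oligonucleotide through which RNase H cuts the matching RNA. In the control gapmeR group (4 libraries, replicates 2, 5, 6 and 7) the oligonucleotide was negative control #1, and in the MAARS gapmeR group (4 libraries, replicates 9, 11, 13 and 15) it was directed at the macrophage lncRNA MAARS. The labels give 25 nM of gapmeR and do not say whether the cultures came from separate mice, so p-values measure the spread between these libraries only. The model is a cultured macrophage that carries a transfected oligonucleotide in either group, and no untransfected library was analysed here.

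In the ISR, kinases that each sense a different stress phosphorylate the translation initiation factor eIF2. Its exchange factor eIF2B is then blocked, general translation falls, and the Atf4 mRNA is translated more because of its upstream open reading frames. ATF4, a bZIP transcription factor, pairs with C/EBP proteins and turns on genes of amino acid supply, further transcription factors and feedback inhibitors. Because ATF4 is set largely at translation, the level of its mRNA is not a measure of its protein. In macrophages the program is best known for CHOP, the product of Ddit3, in the apoptosis of lipid-loaded cells.

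ATF4 and its C/EBP partners bind composite elements near the start of their target genes, and the stretches below show where the letters of such an element lie in genes of the program. The letters TGATGNAAN were searched on both strands of the RefSeq promoter windows (250 bases before to 50 after each start, GRCm38.p6), overlapping matches included, and 3.95% of 32851 windows held them. They were found in windows of 4 of the 10 ISR genes, which are known for their regulation by ATF4, so this share is a description. It counts genes with a match in any of their windows, while the share over all promoters counts windows, so the shares are not in the same unit. Each stretch of 30 bases reads 5′ to 3′ on the gene's strand, with the matching letters in capitals. The first 4 are ISR genes (Asns at chr6:7693213-7693242, minus strand; Atf3 at chr1:191183425-191183454, minus strand; Chac1 at chr2:119351038-119351067, plus strand; Trib3 at chr2:152344028-152344057, minus strand).
Asns: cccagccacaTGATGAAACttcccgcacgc
Atf3: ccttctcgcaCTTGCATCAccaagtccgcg
Chac1: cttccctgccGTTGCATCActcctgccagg
Trib3: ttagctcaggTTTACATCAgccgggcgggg
The next 5 are genes from lists around the program (Nupr1 at chr7:126625562-126625591, minus strand; Jdp2 at chr12:85599373-85599402, plus strand; Herpud1 at chr8:94386306-94386335, plus strand; Pck2 at chr14:55540152-55540181, plus strand; Iars at chr13:49682126-49682155, plus strand), taken from those with a match among the called genes of smallest p named from each list. Aars, called lower (log2 fold change -0.25), also qualified and is not shown.
Nupr1: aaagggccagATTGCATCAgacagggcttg
Jdp2: tagccggggcTGATGCAACccgtcccgccg
Herpud1: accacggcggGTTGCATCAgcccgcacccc
Pck2: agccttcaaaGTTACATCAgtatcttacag
Iars: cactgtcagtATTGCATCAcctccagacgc
The matches in Asns, Nupr1 and Iars lie inside an annotated exon of their gene in GENCODE M21, and the others shown lie outside the exons of their gene.

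Counts on genes lay between 19287279 and 20567123 per library in the control group while the MAARS gapmeR libraries held 20839671 to 24541205, so every MAARS gapmeR library was the deeper. Values below are in CPM, the usual count unit relative to library size, with TMM factors, and differences are log2 fold changes of MAARS gapmeR over control gapmeR from edgeR. A gene was called when its adjusted p in edgeR's quasi-likelihood test was under 0.05. MAARS itself (Gm14461, chromosome 2) had 12.2, 15.1, 12.98 and 12.2 CPM with control gapmeR and 7.71, 6.41, 7.31 and 5.85 CPM with MAARS gapmeR, a log2 fold change of -0.95 (SE 0.112). The macrophage markers Cd68, Adgre1, Csf1r and Lyz2 were abundant in every library. The 8 macrophage markers summed to 13836 to 17118 CPM in the control group and 17011 to 20241 CPM in the MAARS gapmeR group. Lyz2 was the largest part of this sum, at 9402 ± 1240 and 13170 ± 1172 CPM (SD, n = 4 each). Of the 8 markers 5 were called higher and 2 lower (Cd68 and Fcgr1), beside 21.3% and 24.0% of all genes tested. Fcgr1 fell from 808 ± 174 to 190 ± 42.7 CPM (SD, n = 4 each). Of the T cell markers only Cd4, which macrophages can express, exceeded 10 counts in any library, Cd3g was at 0 throughout, and all 6 erythroid markers stayed under 10 counts. The 7 fibroblast markers summed to 460 to 1047 CPM in the control group and 720 to 1237 CPM in the MAARS gapmeR group, led by Col1a1 and Col1a2, with Lum near 0. The 8 neutrophil markers summed to 101 to 299 CPM and 105 to 168 CPM.

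After MAARS knockdown the ISR genes did not move as 1 block. Asns and Psat1, which make asparagine and serine, and Ddit4, an inhibitor of mTORC1, rose. Ddit3 and Atf3, the stress transcription factors downstream of ATF4, fell. Atf4 itself, Sesn2, Trib3, Ppp1r15a and Chac1 did not pass the threshold. Thus 3 of the 10 genes were called higher and 2 lower, beside 21.3% and 24.0% of all genes tested, and 5 of 10 were called in all, beside a background of 45.4%. The number of calls is therefore close to that over all genes. The groups of libraries did not overlap for the same 5 genes, 3 higher (background 19.3%) and 2 lower (background 22.8%), beside 42.1% of all genes in either direction. With upper-quartile factors the split over all genes turned from 47.0% to 60.4% of calls higher, while the 3 higher and 2 lower ISR genes were also called with those factors. The median log2 fold change of the 10 genes was -0.010, and that of all genes tested was 0.0080. In bulk RNA, fewer cells expressing a gene and less RNA per cell cannot be told apart.

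**Figure D1:**
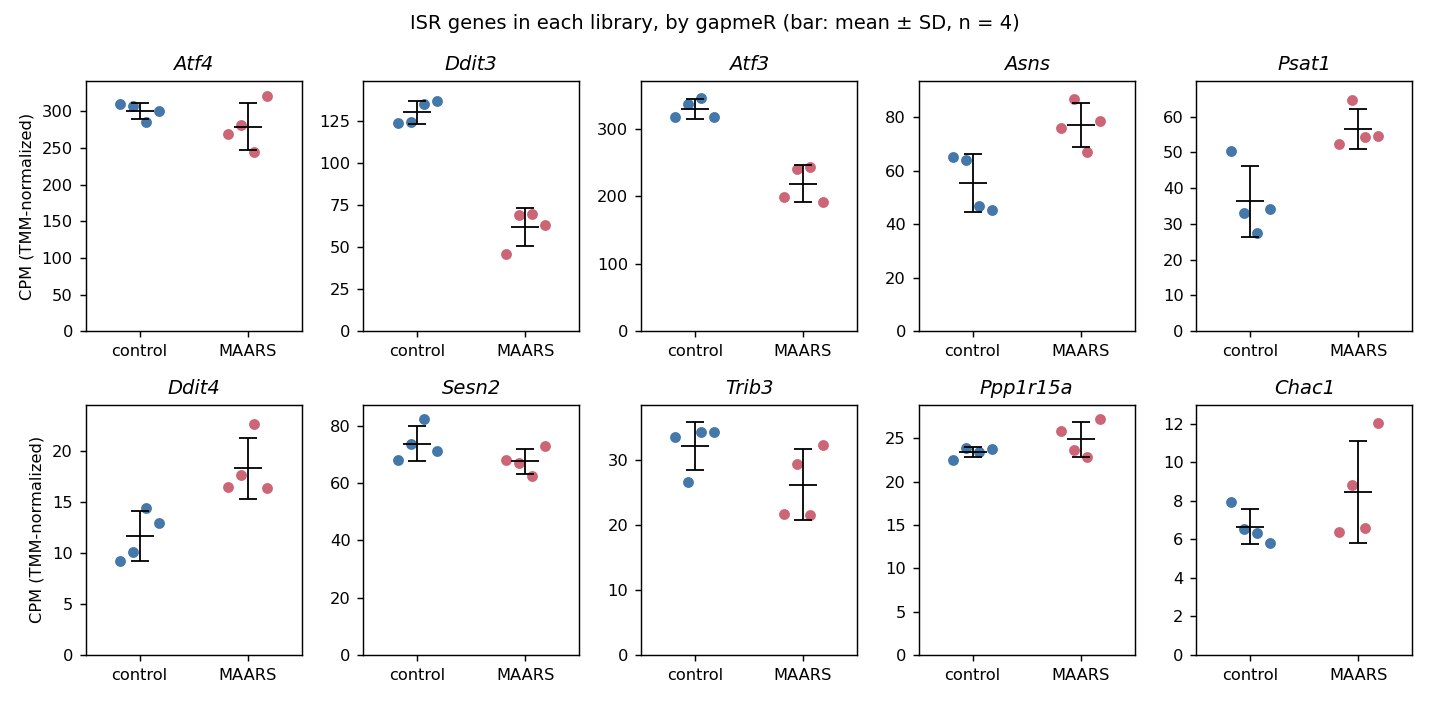
TMM-normalized CPM (vertical axes from 0) of the 10 ISR genes in the 4 control gapmeR (blue) and 4 MAARS gapmeR (red) libraries, with the mean and SD in black. The groups are separate for Ddit3, Atf3, Asns, Psat1 and Ddit4 and overlap for the other 5 genes.

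Atf4 (ENSMUSG00000042406, chromosome 15, 80255184 to 80257541, GRCm38) had 311, 307, 286 and 301 CPM in control replicates 2, 5, 6 and 7. With MAARS gapmeR it had 269, 281, 244 and 321 CPM in replicates 9, 11, 13 and 15. Replicates 9, 11 and 13 lay below all controls and replicate 15 lay above them all, so the groups overlapped. The means were 301 ± 10.9 and 279 ± 32.2 CPM (SD, n = 4 each), and the log2 fold change was -0.11 (SE 0.0729, adjusted p = 0.241 from edgeR). Without MAARS gapmeR replicate 15 it was -0.18 (adjusted p = 0.0299 from edgeR), which passed the threshold, and Trib3 passed it in the same direction in that fit, so that 4 ISR genes were called lower in place of 2. Among the genes whose profile over the 8 libraries was nearest to that of Atf4, by the distance between mean-centred log2 CPM, were Pigu and Map2k3 (distances 0.151 and 0.153). None of the other ISR genes was as near, the nearest being Sesn2 at 0.32 and the farthest Ddit3 at 1.504. The profiles were not scaled, so this distance takes in the size of each gene's change, and shared regulation with Atf4 was not tested.

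Ddit3 encodes CHOP, the bZIP factor tied to cell death under prolonged stress. It lies on chromosome 10 (127290774 to 127296288), and 4.7% of its exon sequence is shared with an opposite-strand gene. It had 124, 125, 135 and 137 CPM in control replicates 2, 5, 6 and 7 and 45.8, 69.3, 69.6 and 63.4 CPM in MAARS gapmeR replicates 9, 11, 13 and 15. Every MAARS gapmeR library was below every control by a wide margin, with replicate 9 the lowest. The control mean was 130 ± 6.94 CPM and the MAARS gapmeR mean 62.0 ± 11.2 CPM (SD, n = 4 each). The log2 fold change was -1.07 (SE 0.11, adjusted p = 2.1e-05 from edgeR), or 2.1-fold lower. This was the largest change in size among the 10 ISR genes.

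Atf3, a bZIP repressor induced by many stresses and by inflammatory signals, is on chromosome 1 (191170296 to 191218039). Its levels were 317, 338, 346 and 318 CPM in the control libraries and 199, 241, 243 and 191 CPM in the MAARS gapmeR libraries. The lowest control was well above the highest MAARS gapmeR library. The log2 fold change was -0.59 (SE 0.079, adjusted p = 0.00013 from edgeR), or 1.51-fold lower. In a two-sided exact permutation test of single genes over the libraries, Ddit3, Atf3, Asns, Psat1 and Ddit4 each had p = 0.0286, the smallest that 4 against 4 libraries can give.

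Asns and Psat1 represent the amino acid branch of the program. Asns, asparagine synthetase, is on chromosome 6 (7675169 to 7693254). It had 65.4, 64.2, 46.8 and 45.3 CPM in control replicates 2, 5, 6 and 7 and 76.1, 87.1, 67.2 and 78.8 CPM in the MAARS gapmeR libraries. The control libraries formed a higher and a lower pair, and the highest control lay just below the lowest MAARS gapmeR library. The control mean was 55.4 ± 10.8 CPM and the MAARS gapmeR mean 77.3 ± 8.18 CPM (SD, n = 4 each). The log2 fold change was 0.48 (SE 0.123, adjusted p = 0.00807 from edgeR), or 1.39-fold.

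Psat1, phosphoserine aminotransferase, catalyses the middle step of serine synthesis and is on chromosome 19 (15904678 to 15947337). It had 50.5, 33.1, 27.5 and 34.2 CPM in the control libraries and 52.4, 64.7, 54.3 and 54.6 CPM in the MAARS gapmeR libraries. Control replicate 2 reached almost to the MAARS gapmeR group and the other 3 controls stayed well below it. The log2 fold change was 0.64 (SE 0.15, adjusted p = 0.00505 from edgeR), and over the fits that each left out 1 library it ran from 0.52 to 0.84, the latter without control replicate 2.

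Ddit4 and Sesn2 both restrain the growth kinase complex mTORC1. Ddit4, also known as REDD1, is on chromosome 10 (59949669 to 59951834) and had 9.22, 10.1, 14.4 and 12.9 CPM in the control libraries and 16.5, 17.6, 22.7 and 16.4 CPM in the MAARS gapmeR libraries. All MAARS gapmeR libraries were above all controls, and replicate 13, which also had the highest summed fibroblast markers, was the highest. The part of other cell types in this difference was not tested. Its log2 fold change of 0.65 (SE 0.149, adjusted p = 0.00435 from edgeR) was a 1.57-fold rise. Sesn2, the leucine-sensing sestrin on chromosome 4 (132492032 to 132510501), lay between 67.8 and 82.1 CPM in the control group while the MAARS gapmeR libraries held 62.3 to 72.8 CPM, and the log2 fold change was -0.13 (SE 0.0665, adjusted p = 0.143 from edgeR).

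The 3 feedback and effector genes did not pass the threshold. Trib3, a pseudokinase that inhibits ATF4 and CHOP and lies on chromosome 2 (152337422 to 152344032), had 33.5, 26.7, 34.4 and 34.3 CPM in the control libraries and 21.7, 29.4, 21.5 and 32.3 CPM in the MAARS gapmeR libraries. Replicates 9 and 13 lay below all controls, while replicates 11 and 15 lay within the control range. Its log2 fold change was -0.29 (SE 0.134, adjusted p = 0.0957 from edgeR), and the adjusted p was 0.0265 without MAARS gapmeR replicate 15 and 0.0441 without control replicate 5 (both from edgeR). Chac1, which degrades glutathione and lies on chromosome 2 (119351229 to 119354381), had 6.39, 8.79, 6.57 and 12.0 CPM in the MAARS gapmeR libraries beside 5.80 to 7.94 CPM in the control group. Replicate 15 was the highest of the MAARS gapmeR libraries in Chac1, as in Trib3, Atf4, Sesn2 and Ppp1r15a, that is, in every ISR gene that was not called. The log2 fold change of Chac1 was 0.35 (SE 0.195, adjusted p = 0.165 from edgeR), and it was 0.13 without replicate 15. Ppp1r15a, or GADD34, the phosphatase subunit that reverses eIF2 phosphorylation, on chromosome 7 (45522916 to 45526268), had the smallest log2 fold change in size, with 22.5 to 23.9 CPM in the control group and 22.8 to 27.3 CPM in the MAARS gapmeR group (log2 fold change 0.089, SE 0.0679, adjusted p = 0.305 from edgeR).

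**Figure D2:**
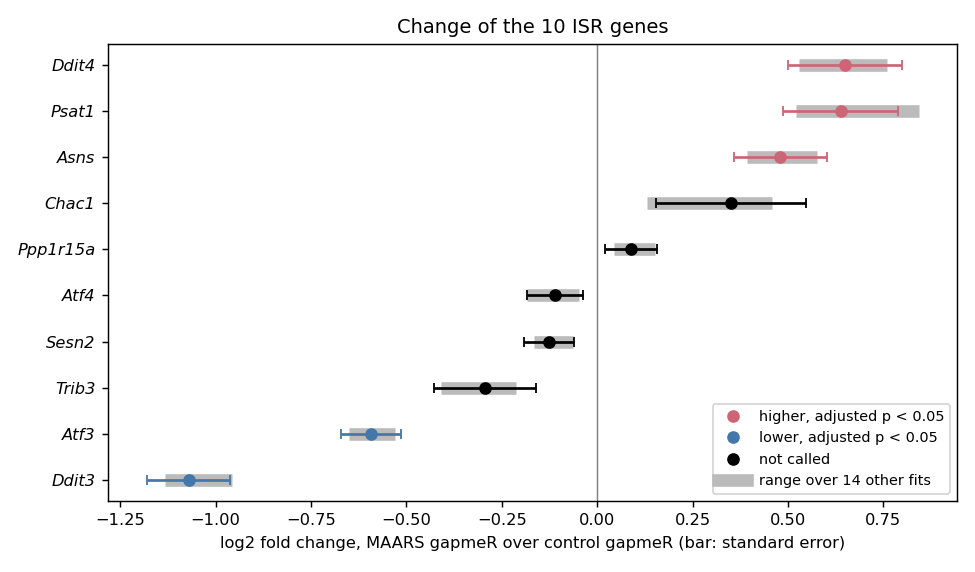
Log2 fold change (horizontal axis) of MAARS gapmeR over control gapmeR for the 10 ISR genes with its standard error, and in grey the range over the 14 other fits. Psat1, Ddit4 and Asns (red) are higher, and Ddit3 and Atf3 (blue) are lower. None of the 10 genes, called or not, reaches 0 in any fit, so this does not set the called genes apart.

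The counts of these genes can also be set against each other inside each library, where no scaling between libraries enters. Asns had 0.526, 0.515, 0.346 and 0.33 counts per count of Ddit3 in the control libraries and 1.66, 1.26, 0.966 and 1.24 in the MAARS gapmeR libraries. The geometric mean with MAARS gapmeR was 2.999 times that with control gapmeR. Set against Atf4, Ddit3 had 0.434 ± 0.0366 counts per Atf4 count with control gapmeR and 0.225 ± 0.051 with MAARS gapmeR, and Asns had 0.183 ± 0.0307 and 0.278 ± 0.0264 (SD, n = 4 each). The ratio of Trib3 to Atf4 overlapped between the groups (0.107 ± 0.0145 and 0.0935 ± 0.011, SD, n = 4 each). These ratios were chosen after the values of the genes had been seen and restate the separate differences of the genes, so they are given as a description with no test.

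Per exon length, the transcription factors were the most abundant of the 10 genes. In the control group Atf3 stood at 153 ± 6.65 RPKM (CPM divided by the exon length in kilobases), Atf4 at 128 ± 4.62 and Ddit3 at 76.1 ± 4.05 (SD, n = 4 each). Sesn2 (21.2 ± 1.76 RPKM), Asns (20.3 ± 3.96) and Trib3 (15.2 ± 1.75) followed. Psat1 (8.54 ± 2.33 RPKM), Ppp1r15a (7.96 ± 0.207), Ddit4 (6.64 ± 1.37) and Chac1 (4.06 ± 0.558) were the scarcest. Sesn2 and Asns, Asns and Trib3, and likewise Psat1, Ppp1r15a and Ddit4, did not differ beyond their SDs. In the MAARS gapmeR group Atf4 (118 ± 13.7 RPKM) and Atf3 (102 ± 12.7) stood in the reverse order but within their SDs, with Ddit3 at 36.2 ± 6.52 and Asns at 28.3 ± 2.99 RPKM.

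Of the 4 eIF2 kinase genes, which act upstream of Atf4, 1 was called lower and 1 higher. They belong to a list of 18 genes that also holds eIF2, eIF2B, subunits of the phosphatase that acts on eIF2, and the GCN2 regulators Gcn1l1 and Impact. In that list 3 genes were called higher and 9 lower, beside 21.3% and 24.0% of all genes. Eif2ak2, which encodes PKR, the double-stranded RNA sensor and an interferon-stimulated gene, fell from 197 ± 9.84 to 99.1 ± 14.4 CPM (SD, n = 4 each; log2 fold change -0.99, SE 0.089, adjusted p = 1.03e-05 from edgeR). Eif2ak3, the ER kinase PERK, 8% of whose exon sequence is shared with an opposite-strand gene, rose from 30.3 ± 1.96 to 39.6 ± 3.88 CPM (log2 fold change 0.39). The heme-regulated kinase gene Eif2ak1 (log2 fold change 0.040) and the amino acid sensor Eif2ak4 (0.19) were not called. Of the 5 eIF2B subunit genes, Eif2b1, Eif2b2, Eif2b3 and Eif2b4 fell and Eif2b5 was not called. Eif2b4 fell by 0.70 on the log2 scale, from 34.8 ± 0.925 to 21.4 ± 0.723 CPM (SD, n = 4 each). Its adjusted p was 5.27e-06 in edgeR. An opposite-strand gene shares 7.8% of its exon sequence. Ppp1cc, a catalytic subunit of the phosphatase, rose by 0.22 on the log2 scale. Eif2ak1, Eif2ak4, Eif2b1, Eif2b2, Eif2b3 and Eif2b5 fall outside the rule for named genes and were named after their values had been seen.

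Among 12 genes for bZIP partners and relatives of ATF4, 4 were called higher and 3 lower (21.3% and 24.0% of all genes). The C/EBP partner gene Cebpg rose by 0.25 and Jdp2, a close relative of ATF3, by 0.57 on the log2 scale, so that Jdp2 and Atf3 moved in opposite directions. Cebpb, 20.7% of whose exon sequence is shared with an opposite-strand gene, fell by 0.37 with overlapping groups, and Nfe2l1 fell by 0.13. Atf5, an ATF4 relative and target, rose from 117 ± 12.6 to 138 ± 11.2 CPM (SD, n = 4 each), with overlapping groups (adjusted p = 0.0292 from edgeR). It was named after its value had been seen.

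Of 10 genes of serine and one-carbon synthesis beside Psat1, 6 were called higher and 1 lower, beside 21.3% and 24.0% of all genes, and 3 were not called. The list had a median log2 fold change of 0.36, beside 0.0080 for all genes tested. The enzymes before and after Psat1 in serine synthesis, Phgdh and Psph, rose with it, by 0.65 (SE 0.162, adjusted p = 0.00701 from edgeR) and 0.34 (SE 0.088, adjusted p = 0.00817 from edgeR) on the log2 scale. An opposite-strand gene shares 10.4% of the exon sequence of Psph. In Phgdh the control libraries had 25.7, 26.2, 15.4 and 17.97 CPM and the MAARS gapmeR libraries 33.5, 40.0, 27.9 and 32.2 CPM, a higher and a lower pair of controls as in Asns. Shmt2, which takes serine into the mitochondrial folate cycle, rose by 0.38 with overlapping groups. Mthfd1l and Mthfd2l, with the smallest p of this list, rose by 0.53 and 0.51. Mthfd2, the folate enzyme best known as an ATF4 target, showed -0.20 on the log2 scale (adjusted p = 0.0813 from edgeR). Aldh1l1, a cytosolic folate enzyme, 11% of whose exon sequence is shared with an opposite-strand gene, fell by 0.40. Phgdh, Psph, Shmt2 and Mthfd2 were named after their values had been seen.

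Of 12 tested genes for other amino acid enzymes, 4 were called higher and none lower, beside 21.3% and 24.0% of all genes in the same edgeR test. In all 33.3% of these genes were called, below the 45.4% of all genes. The log2 fold changes of these 12 genes were all above 0 and ran from 0.066 to 0.77. Pck2, mitochondrial phosphoenolpyruvate carboxykinase, rose from 55.3 ± 8.72 to 94.3 ± 6.14 CPM (SD, n = 4 each; log2 fold change 0.77, SE 0.0974, adjusted p = 9.03e-05 from edgeR). Aldh18a1, which starts proline synthesis, rose by 0.70 on the log2 scale. Cbs, the other enzyme of this list, had at most 1 count in any library and was not tested.

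**Figure D3:**
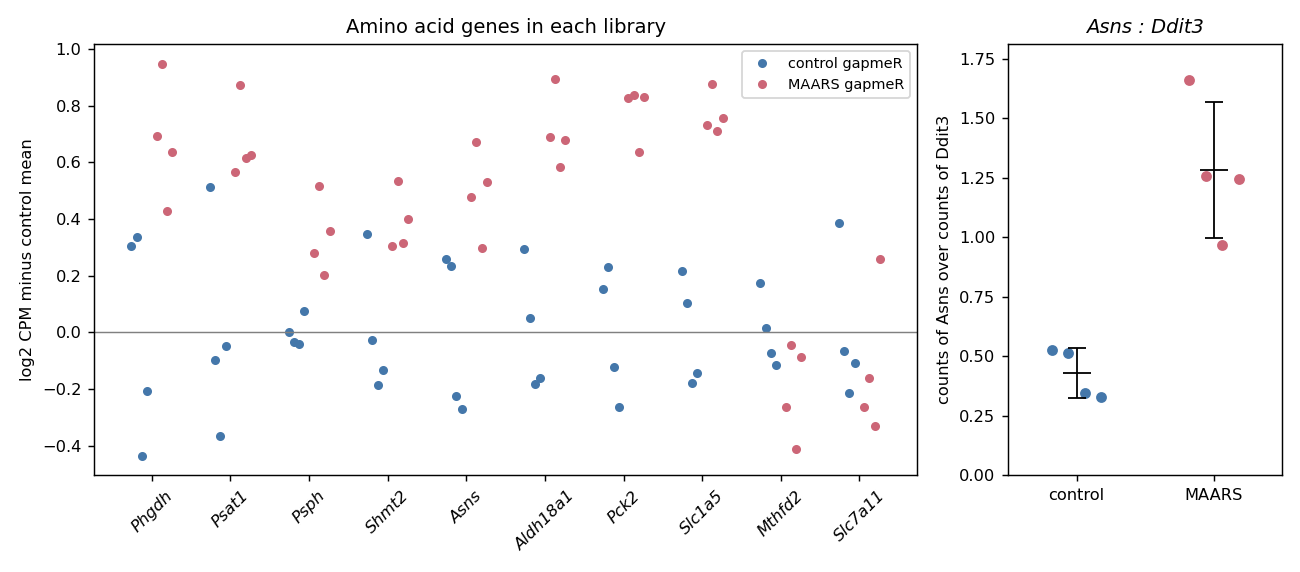
Left, log2 CPM minus the control mean (vertical axis) of 10 amino acid genes in each library, control gapmeR in blue and MAARS gapmeR in red. These genes were picked by hand, not by a rule, and do not stand for their lists. Slc3a2 and Aldh1l1, called lower (log2 fold changes -1.17 and -0.40), are not among them. Right, counts of Asns over counts of Ddit3 in each library with the mean and SD, where all 4 MAARS gapmeR libraries lie above 0.9 and all controls below 0.6.

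Of 11 amino acid transporter genes tested, 3 were called higher, 1 lower and 7 not called. The share called, 36.4%, was below the 45.4% of all genes. Slc1a5, the glutamine carrier, rose from 20.1 ± 2.68 to 34.0 ± 1.80 CPM (SD, n = 4 each; log2 fold change 0.76, SE 0.0878, adjusted p = 4.84e-05 from edgeR), and Slc38a2 rose by 0.46. Slc3a2, the heavy chain shared by several carriers, fell from 1217 ± 163 to 541 ± 31.0 CPM (SD, n = 4 each; log2 fold change -1.17, SE 0.0871, adjusted p = 5.27e-06 from edgeR). Its light-chain partners Slc7a5 and Slc7a11 differed from it, and no other partner was examined here. Slc7a5, the leucine carrier, rose from 35.8 ± 4.30 to 47.1 ± 5.07 CPM (SD, n = 4 each; edgeR adjusted p = 0.00595), and the cystine carrier Slc7a11 showed -0.12 on the log2 scale (adjusted p = 0.545 from edgeR). Both partners were named after their values had been seen.

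Of the 13 genes of the list of synthetases linked to ATF4, which includes the tRNA exporter Xpot, 4 were called higher and 2 lower, a share called of 46.2% beside 45.4% of all genes. Iars and Xpot rose by 0.51 and 0.44, while Wars, which is also induced by interferon, and Aars fell by 0.44 and 0.25 (log2), and 14.3% of the exon sequence of Aars is shared with a same-strand gene. All 8 of the other cytosolic synthetase genes were called, 2 higher (Qars by 0.18 and Vars by 0.18) and 6 lower, led by Kars with a fall of 0.43 and Dars with a fall of 0.33. The median log2 fold change was 0.090 for the list linked to ATF4 and -0.25 for the other synthetases.

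Of the 17 tested genes in a list of further ATF4 targets, 6 were called higher and 6 lower (21.3% and 24.0% of all genes), with a median log2 fold change of 0.069. Nupr1, a small stress-induced chromatin protein, fell from 38.8 ± 4.70 to 16.7 ± 1.27 CPM (SD, n = 4 each; log2 fold change -1.21, SE 0.0922, adjusted p = 5.27e-06 from edgeR). Sqstm1, the autophagy receptor p62, 17.3% of whose exon sequence is shared with an opposite-strand gene, fell by 0.39. Klhl24 rose from 49.0 ± 7.87 to 98.0 ± 10.2 CPM (SD, n = 4 each; log2 fold change 1.00, SE 0.105, adjusted p = 2.45e-05 from edgeR), and Vegfa, the angiogenic growth factor, rose by 0.59. Fgf21 was at 0 in all 8 libraries.

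The element letters shown above were set beside the calls. Of the 4 ISR genes with a match, Asns rose, Atf3 fell, and Chac1 and Trib3 were not called. Of the 6 ISR genes without one in the searched window, 2 rose and 1 fell. Sequence beyond 250 bases before or 50 after the start was not searched, so a gene without a match can hold the letters elsewhere. In the other lists, 16 of 105 genes with a promoter window held a match, and of the 15 of these that were tested 5 were called higher and 2 lower, beside 21.3% and 24.0% of all genes. Of the 86 tested genes without a match, 23 were called higher and 25 lower. Nupr1, Iars and Aars hold the same 9 letters (ATTGCATCA, read on the gene's strand), and Nupr1 and Aars fell while Iars rose.

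Paralogs did not all follow the ISR gene they resemble. Sesn1 rose from 181 ± 22.2 to 299 ± 35.7 CPM (SD, n = 4 each, log2 fold change 0.72, SE 0.096, adjusted p = 0.000128 from edgeR). Sesn3 rose by 0.27 on the log2 scale with overlapping groups, while Sesn2 was not called. Ddit4l rose by 0.96, from 0.667 ± 0.202 to 1.30 ± 0.245 CPM (SD, n = 4 each), in the direction of Ddit4. Trib1 and Chac2 had log2 fold changes of -0.061 and -0.24 and were not called, like Trib3 and Chac1. Trib2 had 3, 5, 7 and 6 counts in the control libraries and 10, 19, 24 and 17 counts in the MAARS gapmeR libraries. It did not pass the filter on low counts, so this difference was not tested.

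Of 21 genes for ER chaperones, ER-associated degradation and the sensors ATF6 and IRE1, 3 were called higher and 7 lower (21.3% and 24.0% of all genes), with a median log2 fold change of -0.031. Hspa5, the chaperone BiP and usual gauge of ER stress, had 778 ± 50.03 and 731 ± 12.4 CPM (SD, n = 4 each; log2 fold change -0.091, adjusted p = 0.176 from edgeR), a value given although it falls outside the rule for named genes. Herpud1, which serves ER-associated degradation and is a target of both ATF4 and ATF6, had the largest difference of this list, a rise of 0.85 (SE 0.0854, adjusted p = 1.84e-05 from edgeR). Sel1l rose by 0.30, and Creld2 and Hyou1 fell by 0.31 and 0.21 on the log2 scale.

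**Figure D4:**
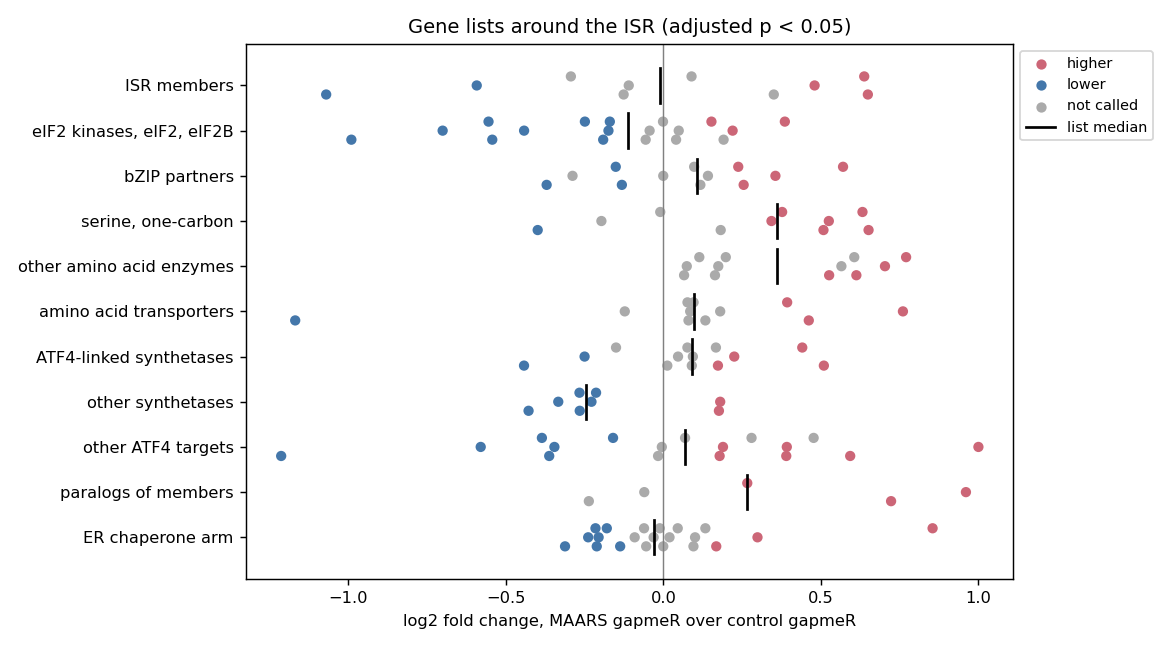
Log2 fold change of MAARS gapmeR over control gapmeR (horizontal axis) of every tested gene of the ISR and 10 lists around it, coloured by its call at an adjusted p under 0.05, with the list median as a black bar. The medians of the serine and one-carbon list and of the other amino acid enzymes lie at 0.36, and that of the other synthetases at -0.25.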

How the data were processed

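RNA-Seq counts of 8 BMDM libraries were used. Per the labels and the paper's methods, the authors trimmed reads (Trimmomatic 0.36), aligned them with STAR 2.5.2b to GRCm38 and assigned them to genes by featureCounts (Subread 1.5.2); the deposited values are raw counts, not normalized. The strand setting and the treatment of multiply mapped reads are not given in the sources used here, so overlapping genes carry that uncertainty. Symbols, positions and exon lengths came from GENCODE M21 (GRCm38), which held 99.47% of the identifiers.

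Groups followed the labels. Genes were filtered with filterByExpr (minimum count 10, minimum total count 15), normalized with TMM and compared with edgeR 4.0.16 (glmQLFit, glmQLFTest; R 4.3.3), with Benjamini-Hochberg adjustment over 13051 genes. SE is the absolute log2 fold change over the square root of F. Pairs of libraries of a group differed by a chi-square of 4.26 to 15.4 per gene, so none was another library read again. This check cannot tell separate cultures from separate preparations of the same culture. Alternatives were RLE and upper-quartile factors, DESeq2 1.42.0, limma-voom (limma 3.58.1), leaving the filter out, requiring a mean of 10 counts, and each library left out. On simulated counts of 13051 genes, with 100 genes changed 1.5-fold and 100 changed 2-fold, edgeR called 74% and 85% of these. Of its calls there, 5.9% were unchanged genes. A far larger share of genes was called in the data (45.4%), so these values do not give the recovery in the data.

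Genes named are all ISR genes, MAARS, for each list up to 2 called genes per direction by smallest p, tested paralogs of ISR genes and the 3 nearest profiles to Atf4. Others, apart from markers and untested genes, are said to fall outside this rule or to be named after their values were seen. Some genes that this rule or the marker lists hold are not reported here. The ISR genes and lists were chosen with earlier results of these data known. Sequences are from RefSeq on GRCm38.p6, with windows for all 10 ISR genes and 105 of 132 other genes.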

Additional observations from a re-analysis of the deposited data

Results flagged for a closer look

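Among 34 groups of 4 libraries examined (10 ISR genes, MAARS and 6 marker lists in 2 groups), 2 held a library that stood far from the other 3, where about 1 in 20 would by chance. Control replicate 5 had 26.7 CPM of Trib3, below the other controls at 33.5 to 34.4 CPM. Control replicate 7 had 2.46 CPM summed over the B cell markers, above the other controls at 1.38 to 1.51 CPM, a level near the limit of detection.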

How the results depend on the processing

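Atf3, Ddit3, Ddit4, Asns, Psat1 and MAARS kept their direction and their call in all 14 alternative fits. Trib3 passed the threshold with no filter on low counts (log2 fold change -0.30, adjusted p = 0.0254 from edgeR); the cause was not tested. In that fit 3 ISR genes were called lower. When each library was left out in turn, the log2 fold change ran from -0.18 to -0.053 for Atf4, -0.65 to -0.53 for Atf3, -1.13 to -0.96 for Ddit3, 0.53 to 0.76 for Ddit4, -0.41 to -0.21 for Trib3, 0.13 to 0.46 for Chac1, 0.39 to 0.57 for Asns, 0.52 to 0.84 for Psat1, -0.16 to -0.075 for Sesn2, 0.043 to 0.13 for Ppp1r15a and -1.01 to -0.88 for MAARS. In these fits 3 ISR genes were called higher each time and 2 to 4 lower, the 4 without MAARS gapmeR replicate 15. Over the lists around the program, 38 of 127 tested genes were called higher and 35 lower. These are 29.9% and 27.6%, beside 21.3% and 24.0% of all genes, in lists chosen with earlier results known. The counts had ranges of 33 to 40 and 29 to 33 when a library was left out, and of 38 to 52 and 25 to 35 over the other alternatives. Upper-quartile factors shifted the median of all genes by 0.063. No paired analysis was possible because the groups share no replicate number. The number of libraries, 4 per group, sets the smallest exact p, and genes of a few CPM such as Chac1 carry the widest errors.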
